A study of Mus musculus with 8 samples.

Results

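The extracellular matrix outside the collagens was followed through 53 genes that encode matrix glycoproteins, laminins and proteoglycans, out of 46078 gene identifiers counted in chronic stroke infarcts of aged mice. The members were taken by symbol from a list of matrix genes and matched to Ensembl identifiers, and all 53 were present in the counts. The rule itself uses no measured value, but the list was chosen with earlier results of these data known. They comprised 17 genes of elastic fibers and microfibrils, 10 of the basement membrane, 8 small leucine-rich proteoglycans, 2 hyaluronan-binding proteoglycans, 10 matricellular genes and 6 adhesive or other matrix genes. Messenger RNA came from the infarcts of 8 wild-type C57BL/6J males, 18 months old, with 1 library per animal. All 8 had undergone DH stroke, in which the distal middle cerebral artery is occluded and the mouse is then held under hypoxia. Beginning 1 week after stroke, 4 mice received subcutaneous PBS (vehicle) and 4 received 4 g/kg of 2-hydroxypropyl-β-cyclodextrin (HPβCD), a cyclic sugar that carries cholesterol and other lipids in its cavity. Injections were given 3 times per week for 6 weeks, and infarcts were removed by hand, by eye, at 7 weeks after stroke. Expression was therefore compared in 1 contrast, HPβCD against vehicle, in tissue whose share of neighboring brain was not fixed by the dissection.

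These proteins build the matrix around and between cells. Fibrillins form microfibrils, on which fibulins, emilins and microfibril-associated proteins help to lay down elastin, and latent TGF-β-binding proteins tether that growth factor to the same fibrils. Laminins, nidogens and perlecan form the basement membrane sheet under endothelium and around mural cells, whereas small leucine-rich proteoglycans such as decorin and biglycan bind fibrillar collagen. Matricellular proteins such as tenascins, thrombospondins and SPARC bind matrix and receptors with little structural role. In adult brain most of these genes are expressed in vessels, meninges and perivascular fibroblasts, while aggrecan, versican and SPARC-like 1 also belong to the matrix made by neurons and glia, and after stroke a fibrotic scar forms in the infarct.

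Libraries held between 16.6 and 32.9 M gene counts, the deepest being vehicle animal 2, and the other 7 lay between 16.6 and 19.4 M. Levels are given as CPM, gene counts scaled to library size with a TMM correction for library composition. The vehicle libraries were not alike in brain RNA. Summed CPM of 8 neuron markers reached 949.7 and 5996 in vehicle animals 1 and 3, against 40.1 and 17.8 in vehicle animals 2 and 4 and 7.77 to 81.5 in the HPβCD animals. The main counts, the class medians and the gene lists around them are therefore also given without vehicle animals 1 and 3.

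Matrix genes took a larger share of the RNA in HPβCD-treated infarcts. The 53 genes together held 0.852%, 1.07%, 0.762% and 0.987% of gene counts in vehicle animals 1 to 4, and 1.42%, 1.31%, 1.504% and 1.21% in HPβCD animals 1 to 4. Every HPβCD library was above every vehicle library in this share. In bulk tissue, fewer cells of a type and less RNA per cell cannot be told apart. All 53 genes passed the filter on low counts, and 6 were called, that is, had an adjusted p under 0.05 in the quasi-likelihood test of edgeR over 14736 genes: *Mfap2*, *Efemp2*, *Hspg2*, *Bgn*, *Tnxb* and *Ecm1*. All 6 were higher in HPβCD, from 1.70-fold for *Efemp2* to 3.40-fold for *Mfap2*, where 1.17% of tested genes were called higher, and none was called lower, where 0.774% of tested genes were (1.95% in either direction). The tallies at looser criteria were larger, with 35 of 53 genes higher and 2 lower (*Acan* and *Sparcl1*) at an unadjusted p under 0.05, against 11.8% and 16% of tested genes. For 25 genes the 4 HPβCD values all lay above the 4 vehicle values, and for 1 gene, *Acan*, they all lay below, compared with 8.77% and 8.01% of tested genes. Across the list 46 log2 fold changes were above 0 and 7 below, with a median of 0.75 and a range from -1.40 to 2.26, whereas over all tested genes 45.9% were above 0 and the median was -0.045.

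**Figure D1:**
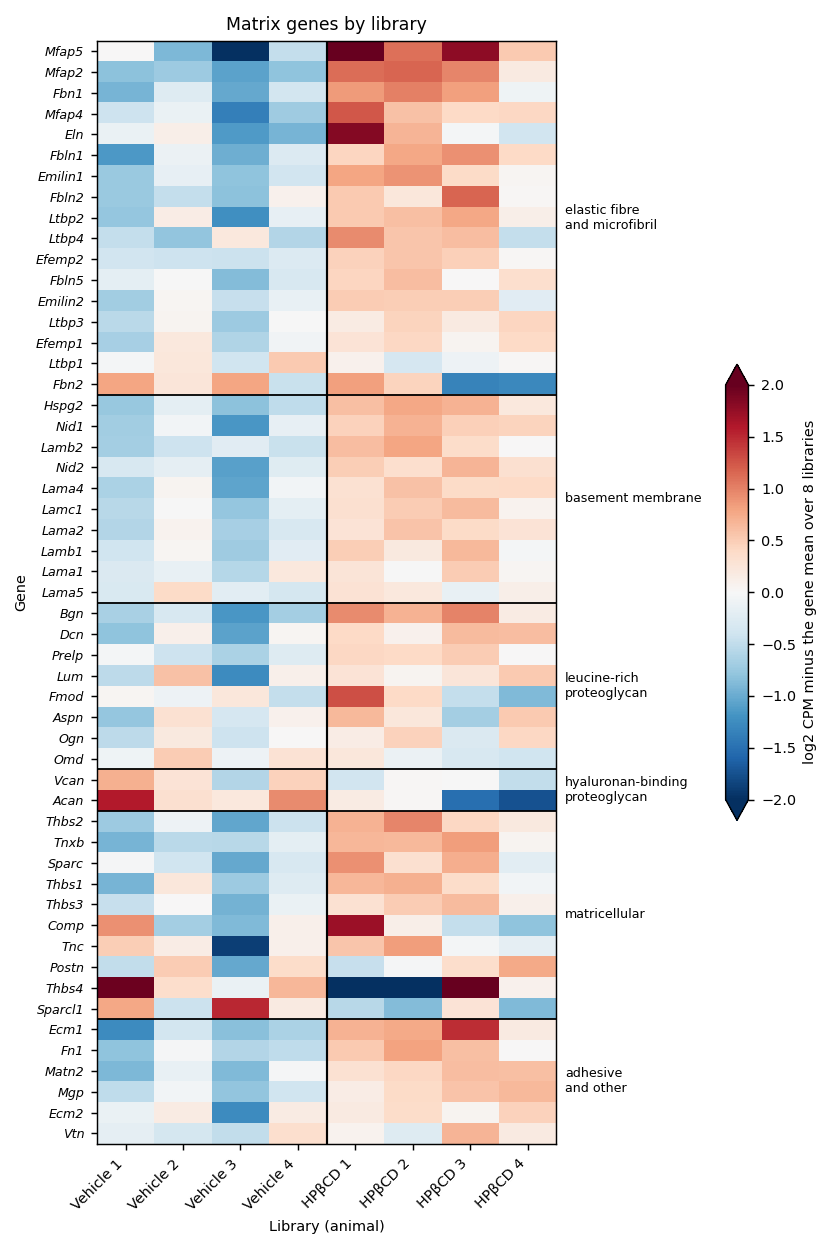
Level of each of the 53 matrix genes (rows, grouped by class and sorted by fold change) in each of the 8 libraries (columns), as log2 CPM minus the mean of that gene over the 8 libraries, with colors capped at 2 in either direction. Most rows run from blue in vehicle to red in HPβCD, with vehicle animal 3 often the bluest and HPβCD animal 4 often the palest, while *Acan*, *Vcan* and *Sparcl1* run the other way.

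The 6 calls lay close to the threshold, with edgeR adjusted p from 0.0405 to 0.0483. With other tools more members passed. DESeq2 called 28 higher and 1 lower (*Acan*), where it called 6.1% of its tested genes higher and 11.4% lower, and limma-voom with sample quality weights called 30 higher and 2 lower (*Vcan* and *Thbs4*), against 10.9% and 11.1%. In either direction those tools called 17.5% and 22.1% of their tested genes. No member passed in edgeR without vehicle animal 1 (adjusted p of the 6 from 0.149 to 0.155), vehicle animal 4 (0.0635 to 0.0660), HPβCD animal 1 (0.155 to 0.156), HPβCD animal 2 (0.172 to 0.175) or HPβCD animal 3 (0.0899 to 0.0913), and in those 5 fits between 0 and 4 genes of the whole table passed. Without vehicle animal 2, 13 members passed, and without vehicle animal 3, 14 did, while calls over the whole table also became more frequent, at 3.6% and 4.22% of tested genes. With both neuron-rich libraries, vehicle animals 1 and 3, left out, *Mfap2* and *Hspg2* passed (1.34% of 15066 tested genes did), 44 of 53 fold changes were above 0 and their median was 0.53. The 6 called genes were above 0 in each of these fits.

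Markers of several cell types moved with the groups. The 10 fibroblast markers summed to between 1495 and 3601 CPM in vehicle and 5323 and 7063 CPM in HPβCD. Of the 10, 3 (*Col1a1*, *Col1a2* and *Pdgfrb*) were called higher, where 1.17% of all tested genes were, with a median log2 fold change of 0.86. *Col1a1*, *Col1a2* and *Col3a1* of this list are collagen genes, so they are matrix genes themselves, and the part of each gene in the sum is not given. The list was not uniform, since *Slc22a6*, *Slc6a13* and *Aldh1a2* lay below 0, and *Slc6a13* (-0.84) had all 4 HPβCD values below the vehicle values. *Tbx18* stood at 0.42 (edgeR adjusted p = 0.427), and at -0.02 without vehicle animals 1 and 3. In that fit the median was 0.52 and 2 of the 10, *Col1a1* and *Col1a2*, were called. Fibroblasts are known to express many of the genes described here. Macrophage and microglia markers summed to 4471 to 7212 CPM in vehicle and 9961 to 17433 CPM in HPβCD, with 1 of 8 (*Gpnmb*, 1.38) called higher, but the median log2 fold change was 0.28, *Aif1*, *Itgam* and *Mrc1* lay below 0, and without vehicle animals 1 and 3 the median was 0.12 with none called. Mural cell markers (320.6 to 501.3 against 411.6 to 656.5 CPM) and endothelial markers (450.7 to 516.5 against 475 to 793.1 CPM) overlapped between groups, and 1 endothelial marker, the transporter *Slco1c1*, was called lower (-1.51). The mural and endothelial medians were 0.44 and 0.47, and 0.37 and 0.45 without vehicle animals 1 and 3. In that fit *Slco1c1* was not called (-0.88, edgeR adjusted p = 0.053). Astrocyte markers spanned 2208 to 9707 CPM in vehicle and 622.4 to 2561 CPM in HPβCD, and oligodendrocyte markers 1514 to 4865 against 157.6 to 1926 CPM. The median log2 fold change of astrocyte markers was -1.775, and -1.04 without vehicle animals 1 and 3. For oligodendrocyte markers it was -1.90 and then -1.69, and for the 6 tested neuron markers -5.88 and then -0.06. None of the markers of these 3 cell types was called in either fit. Choroid plexus markers were at 13.2 to 16.6 and 13.2 to 20.4 CPM, with 1 of 4 tested, *Prlr*, called lower (-3.13). *Prlr* was not called without vehicle animals 1 and 3 (-3.10, edgeR adjusted p = 0.0674), and the choroid plexus median was then 0.01 instead of -0.465. Of all these markers, *Nefm* of the neuron list alone was at 0 in some libraries. The part of these cell types in the matrix differences was not tested.

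**Figure D2:**
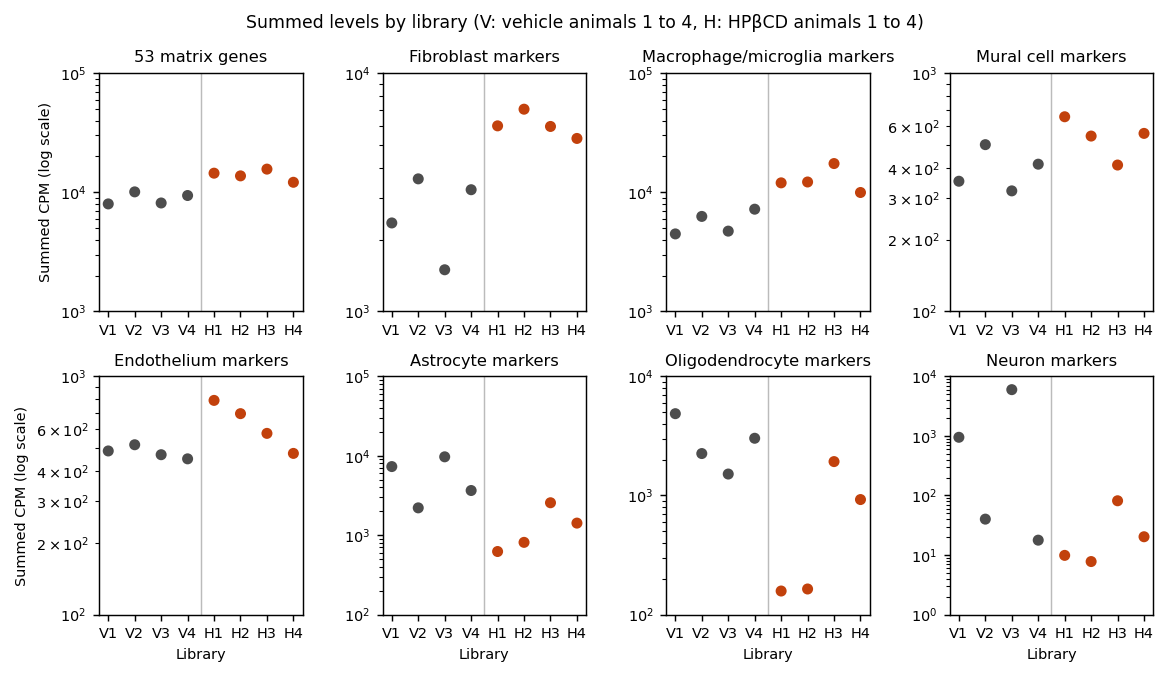
Summed CPM (log scale) of the 53 matrix genes and of 7 lists of cell type markers in each library, vehicle animals in gray and HPβCD animals in orange. The matrix genes, the fibroblast markers and the macrophage and microglia markers are higher in every HPβCD library, mural and endothelial markers overlap, and the neuron markers are highest in vehicle animals 1 and 3.

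Positions are those of the GRCm38 build, and the 6 called genes are all annotated as protein-coding. *Bgn*, for biglycan, spans chrX:73483602-73495933 with 7 merged exons, and *Hspg2*, for perlecan, spans chr4:137468769-137570630 with 97. *Mfap2* lies at chr4:141010418-141015984, *Efemp2* at chr19:5473954-5482517, *Tnxb* at chr17:34670535-34719815 and *Ecm1* at chr3:95734147-95739569. Exons of *Efemp2* overlap those of *Mus81* on the opposite strand over 4.6% of their length, and exons of *Ecm1* overlap the microRNA gene *Mir7014* over 2.5%. A RefSeq window of 250 bases before the start site was at hand for 37 of the 53 genes. It was searched on both strands for 3 short motifs of common promoters, namely TATAAA, found near many start sites, the GC box, spelled GGGCGG, and the letters CCAAT, none of which contains another. GC boxes were in 19 of 37 member windows (32.7% of all 32851 windows of this length), TATAAA in 7 (12.4%) and CCAAT in 12 (33.8%).

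The stretch before *Bgn* and *Hspg2*, both called higher, is shown beside that of *Aspn* and *Ogn*, 2 leucine-rich proteoglycan genes with small differences, because they differ in base composition. Capitals mark the motifs on either strand, and the *Hspg2* stretch stops where the annotated gene begins. They are read 5′ to 3′ on the plus strand, at chrX:73483351-73483600, chr4:137468553-137468768, chr13:49544193-49544442 and chr13:49607765-49608014.
*Bgn*: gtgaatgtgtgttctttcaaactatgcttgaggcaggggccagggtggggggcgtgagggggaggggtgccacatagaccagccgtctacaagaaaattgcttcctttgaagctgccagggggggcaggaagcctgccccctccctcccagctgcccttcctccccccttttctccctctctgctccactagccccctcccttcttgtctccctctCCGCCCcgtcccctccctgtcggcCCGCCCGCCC
*Hspg2*: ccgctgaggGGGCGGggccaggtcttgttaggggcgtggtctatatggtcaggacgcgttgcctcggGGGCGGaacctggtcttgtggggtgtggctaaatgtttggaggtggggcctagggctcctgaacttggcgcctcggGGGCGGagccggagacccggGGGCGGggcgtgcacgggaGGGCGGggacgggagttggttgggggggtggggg
*Aspn*: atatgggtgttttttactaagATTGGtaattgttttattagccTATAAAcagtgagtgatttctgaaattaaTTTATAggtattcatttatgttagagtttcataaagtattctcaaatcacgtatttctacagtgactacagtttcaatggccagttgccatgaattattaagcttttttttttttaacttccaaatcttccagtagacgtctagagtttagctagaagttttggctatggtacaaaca
*Ogn*: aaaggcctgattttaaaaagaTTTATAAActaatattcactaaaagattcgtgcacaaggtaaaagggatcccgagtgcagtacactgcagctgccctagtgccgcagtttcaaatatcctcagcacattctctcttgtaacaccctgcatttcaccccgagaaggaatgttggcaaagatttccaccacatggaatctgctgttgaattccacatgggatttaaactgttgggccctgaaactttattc
*Bgn* has 3 GC boxes and no TATAAA in its 250 bases, of which 64.4% are G or C, and *Hspg2* has 5 GC boxes and no TATAAA at 70% in the same length. *Aspn* has 2 TATAAA, 1 CCAAT and no GC box at 30.0%, and *Ogn* has 2 overlapping TATAAA matches and no GC box at 42.0%. The 4 shown windows do not stand for called and uncalled genes at large. Among the other called genes, *Mfap2* and *Tnxb* had no GC box, *Efemp2* had 2, and *Ecm1* had 1 beside 1 TATAAA. *Acan* and *Lama5*, which were not called, had 3 and 4 GC boxes. A match of letters describes the window and shows no binding.

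Elastic fiber and microfibril genes were mostly above 0. Of 17 genes, 2 were called higher and none lower, 15 were above 0, and the 4 HPβCD values lay above all vehicle values in 9. Their median log2 fold change was 0.94, and 0.75 without vehicle animals 1 and 3. Over all tested genes 1.17% were called higher, 0.774% were called lower and 8.77% had all HPβCD values above. The same shares stand beside the counts of the classes that follow. *Mfap2*, for a small glycoprotein of fibrillin microfibrils, was at 1.81, 1.95, 1.51 and 1.83 CPM in vehicle animals 1 to 4 and 7.00, 7.21, 6.32 and 3.66 CPM in HPβCD animals 1 to 4. The groups were far apart, and even HPβCD animal 4, the lowest of its group, stood above every vehicle animal. Its log2 fold change was 1.76 ± 0.26 (SE; adjusted p of 0.0405 in edgeR). *Efemp2*, for fibulin-4, which is required for elastic fiber assembly, was at 25.5, 24.9, 24.6 and 27.4 CPM in vehicle animals 1 to 4 and 45.8, 48.5, 46.3 and 33.6 CPM in HPβCD animals 1 to 4. Vehicle animals were tightly grouped, and HPβCD animal 4 again lay between them and the other treated animals. The log2 fold change of *Efemp2* was 0.77 ± 0.15 (SE; adjusted p of 0.0483 in edgeR).

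The member of this class with the largest fold change, *Mfap5*, for the second microfibril-associated glycoprotein, did not pass. It was at 2.48, 1.32, 0.121 and 1.77 CPM in vehicle animals 1 to 4 and 9.92, 5.32, 8.62 and 3.545 CPM in HPβCD animals 1 to 4. All HPβCD values were higher, yet vehicle animal 3 was far below the rest of its group, and the log2 fold change of 2.26 ± 0.67 had the adjusted p of 0.0854 in edgeR. *Fbn1*, which encodes the main fibrillin of adult microfibrils, was at 61.9, 99.3, 58.4 and 91.3 CPM in vehicle animals 1 to 4 and 213, 237, 209 and 111 CPM in HPβCD animals 1 to 4, without overlap, and had a log2 fold change of 1.31 ± 0.27 (adjusted p of 0.0516 in edgeR). *Fbln1* (1.21), *Emilin1* (1.07), *Mfap4* (1.29), *Fbln5* (0.68) and *Ltbp3* (0.58) also had groups that did not overlap, at adjusted p from 0.0516 to 0.107 in edgeR. *Eln*, for elastin itself, reached 24.5 CPM in HPβCD animal 1 but 5.26 to 11.1 CPM in the other treated animals, against 3.14 to 7.47 CPM in vehicle, so the groups overlapped. *Efemp1*, for fibulin-3, had the highest level per kilobase of exon in the class, with 237, 435, 247 and 357 CPM in vehicle animals 1 to 4 and 454, 502, 389 and 495 CPM in HPβCD animals 1 to 4. Its groups overlapped, and its log2 fold change was 0.53 ± 0.22 (adjusted p of 0.162 in edgeR).

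A pair of elastic fiber genes lay below 0. *Fbn2*, for the fibrillin known from developing tissue, had the lowest level of all 53 genes, at 0.790, 0.544, 0.785 and 0.322 CPM in vehicle animals 1 to 4 and 0.803, 0.611, 0.161 and 0.166 CPM in HPβCD animals 1 to 4, and a log2 fold change of -0.48 ± 0.57 (adjusted p of 0.629 in edgeR), which was 0.13 in limma-voom. *Ltbp1*, for a latent TGF-β-binding protein, was at 27.5, 33.1, 21.4 and 40.7 CPM in vehicle animals 1 to 4 and 29.8, 22.3, 26.3 and 28.7 CPM in HPβCD animals 1 to 4. The groups overlapped throughout, with a log2 fold change of -0.20 ± 0.21 (adjusted p of 0.582 in edgeR). *Ltbp2*, its relative that binds fibrillin but not latent TGF-β, was at 79.1, 151, 57.9 and 121 CPM in vehicle animals 1 to 4 and 196, 207, 233 and 148 CPM in HPβCD animals 1 to 4. Only vehicle animal 2 reached into the HPβCD range, just above HPβCD animal 4, and the log2 fold change was 0.94 ± 0.29 (adjusted p of 0.0931 in edgeR). The remaining members, *Fbln2*, *Emilin2* and *Ltbp4*, had overlapping groups and log2 fold changes of 1.00, 0.64 and 0.86.

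Basement membrane genes all lay above 0, in a narrower range. Of 10 genes, 1 was called higher and none lower, 7 had groups that did not overlap, and the log2 fold changes ran from 0.21 to 1.14 with a median of 0.77, which was 0.51 without vehicle animals 1 and 3. *Hspg2*, for the heparan sulfate proteoglycan perlecan, was at 63.0, 92.3, 60.0 and 74.4 CPM in vehicle animals 1 to 4 and 162, 182, 171 and 123 CPM in HPβCD animals 1 to 4. Every treated animal was above every vehicle animal, vehicle animal 2 being the highest of the controls, and the log2 fold change was 1.14 ± 0.19 (SE; adjusted p of 0.0436 in edgeR). *Nid1*, for nidogen-1, which links laminin to collagen IV, had the highest level per kilobase of the class. It was at 143, 223, 103 and 207 CPM in vehicle animals 1 to 4 and 318, 373, 321 and 315 CPM in HPβCD animals 1 to 4. The groups did not overlap, but vehicle animals 2 and 4 were well above vehicle animals 1 and 3, and the log2 fold change was 0.97 ± 0.24 (adjusted p of 0.0645 in edgeR).

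No laminin chain was called. In all 3 ratios of laminin chains tested within libraries the groups overlapped (exact permutation p from 0.0857 to 0.4, where the smallest possible is 0.0286). *Lamb2*, for the β2 chain of vascular laminins, had a log2 fold change of 0.91 ± 0.19 (adjusted p of 0.0501 in edgeR), the closest to the threshold among members not called, with 105.3 to 143.5 CPM in vehicle and 169.6 to 289.6 CPM in HPβCD. *Lama4*, for the α4 chain of endothelial laminin, *Lamc1*, for the shared γ1 chain, and *Lama2*, for the α2 chain, had log2 fold changes of 0.78, 0.75 and 0.73 with groups apart. *Lamb1* stood at 0.64 and *Lama1*, an α chain of pial basement membrane, at 0.38, both with overlap. *Lama5*, for the other endothelial α chain, was at 8.69, 14.2, 9.36 and 8.48 CPM in vehicle animals 1 to 4 and 13.2, 12.5, 9.75 and 11.7 CPM in HPβCD animals 1 to 4. Here vehicle animal 2 was the highest of all 8, and the log2 fold change was 0.21 ± 0.21 (adjusted p of 0.559 in edgeR). *Nid2*, for nidogen-2, lay at 9.06 to 17.1 CPM in vehicle and 24.2 to 31.1 CPM in HPβCD, with a log2 fold change of 0.89.

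**Figure D3:**
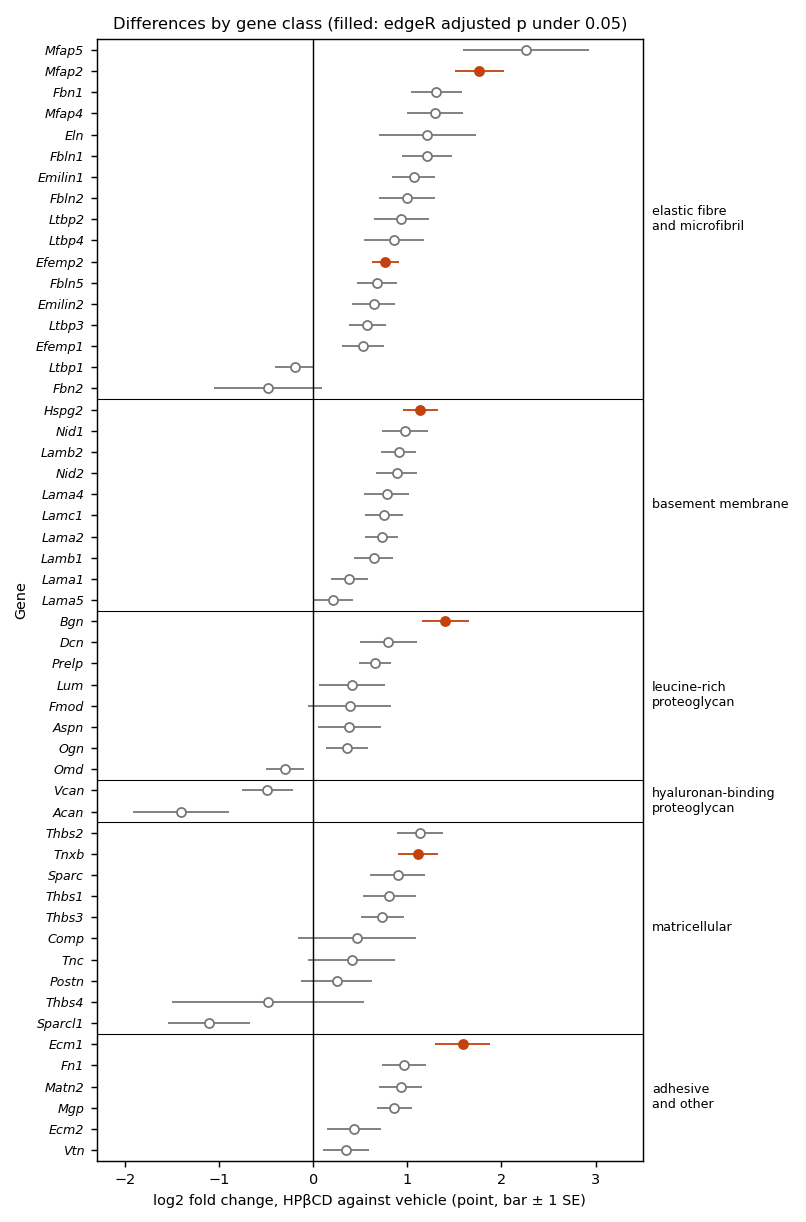
Log2 fold change of HPβCD against vehicle (x axis; point, with a bar of 1 SE on either side) for the 53 matrix genes, grouped by class; filled points mark an edgeR adjusted p under 0.05. The 6 filled points lie between 0.77 and 1.76, the basement membrane class is wholly right of 0, and both hyaluronan-binding genes are left of it.

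Small leucine-rich proteoglycans were divided. Of 8 genes, *Bgn* was called higher and none lower, 2 had groups apart, and the median log2 fold change was 0.40, or 0.26 without vehicle animals 1 and 3. *Bgn*, for biglycan, a collagen-binding proteoglycan of vessel walls and scars, was at 695, 875, 485 and 679 CPM in vehicle animals 1 to 4 and 2098, 1750, 2159 and 1223 CPM in HPβCD animals 1 to 4. The lowest treated animal, HPβCD animal 4, exceeded the highest control, and the log2 fold change was 1.40 ± 0.25 (SE; adjusted p of 0.0483 in edgeR). *Dcn*, for decorin, its closest relative, had the highest level per kilobase of the class. It was at 1209, 2274, 1008 and 2162 CPM in vehicle animals 1 to 4 and 2790, 2254, 3284 and 3233 CPM in HPβCD animals 1 to 4. Vehicle animals 2 and 4 were level with HPβCD animal 2 and far above vehicle animals 1 and 3, and the log2 fold change was 0.80 ± 0.30 (adjusted p of 0.130 in edgeR).

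*Prelp*, for a proteoglycan that anchors basement membrane to connective tissue, was the other member with groups apart, at a log2 fold change of 0.66 ± 0.17 (adjusted p of 0.0686 in edgeR). *Lum* (lumican), *Fmod* (fibromodulin), *Ogn* (osteoglycin) and *Aspn* (asporin) had overlapping groups and log2 fold changes from 0.36 to 0.41, of which *Fmod* turned to -0.16 without HPβCD animal 1 and *Lum* to -0.06 without vehicle animals 1 and 3. *Omd*, for osteomodulin, was the only member of the class below 0. It was at 27.6, 41.9, 27.4 and 35.8 CPM in vehicle animals 1 to 4 and 34.6, 27.2, 23.7 and 22.4 CPM in HPβCD animals 1 to 4. The groups overlapped, with a log2 fold change of -0.30 ± 0.20 (adjusted p of 0.375 in edgeR). Several of these genes are neighbors. On chromosome 13, *Ecm2*, *Aspn*, *Omd* and *Ogn* follow each other with gaps of 11.7, 14.9 and 15.2 kb, and their log2 fold changes of 0.43, 0.38, -0.30 and 0.36 did not share a sign. *Dcn* and *Lum* lie 47.0 kb apart on chromosome 10, with 0.80 and 0.41, and *Prelp* and *Fmod* 115.8 kb apart on chromosome 1, with 0.66 and 0.39.

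The 2 hyaluronan-binding proteoglycans lay below 0, and neither was called. Their median log2 fold change was -0.95, and -0.87 without vehicle animals 1 and 3. *Acan*, for aggrecan, a core protein of perineuronal nets, was at 12.98, 5.41, 5.01 and 8.32 CPM in vehicle animals 1 to 4 and 4.82, 4.40, 1.499 and 1.27 CPM in HPβCD animals 1 to 4. Each treated animal was below each control, though vehicle animal 3 and HPβCD animal 1 nearly met, and the log2 fold change was -1.40 ± 0.51 (adjusted p of 0.120 in edgeR; -1.18 without vehicle animals 1 and 3). *Vcan*, for versican, which is also made by oligodendrocyte precursors, was at 27.7, 20.4, 11.2 and 23.1 CPM in vehicle animals 1 to 4 and 12.96, 17.1, 16.7 and 12.02 CPM in HPβCD animals 1 to 4. Vehicle animal 3 was the lowest of all 8 and the groups overlapped, with a log2 fold change of -0.49 ± 0.27 (adjusted p of 0.277 in edgeR). Within the vehicle group both genes followed the order of the summed oligodendrocyte markers, from animal 1 through 4 and 2 to 3, at 4865, 3024, 2250 and 1514 CPM of those markers. They did not follow the neuron and astrocyte markers, which were highest in vehicle animal 3 (5996 and 9707 CPM). The treated group did not follow the oligodendrocyte order. *Acan* was higher in HPβCD animals 1 and 2 (157.6 and 163.9 CPM of oligodendrocyte markers) than in HPβCD animals 3 and 4 (1926 and 924.3 CPM). *Vcan* was highest in HPβCD animals 2 and 3. An order over 4 animals was not tested, nor was the part of that RNA in the differences.

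Matricellular genes held both directions. Of 10 genes, 1 was called higher and none lower, 3 had groups apart, and the median log2 fold change was 0.60, or 0.47 without vehicle animals 1 and 3. *Tnxb*, for tenascin-X, which spaces collagen fibrils, was at 14.2, 18.5, 18.3 and 23.5 CPM in vehicle animals 1 to 4 and 42.5, 42.2, 48.2 and 28.0 CPM in HPβCD animals 1 to 4. No value overlapped, with HPβCD animal 4 closest to the controls, and the log2 fold change was 1.11 ± 0.22 (SE; adjusted p of 0.0483 in edgeR). *Tnc*, for tenascin-C, a glycoprotein of injured tissue, spanned 4.89 to 25.6 CPM in vehicle and 16.1 to 32.4 CPM in HPβCD, with a log2 fold change of 0.41. *Thbs2*, for thrombospondin-2, an inhibitor of angiogenesis, had the largest fold change of the class. It was at 156, 242, 125 and 191 CPM in vehicle animals 1 to 4 and 419.7, 509, 345 and 294 CPM in HPβCD animals 1 to 4. The groups did not overlap, and the log2 fold change was 1.14 ± 0.25 (adjusted p of 0.0545 in edgeR).

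SPARC and its relative differed in sign. *Sparc*, for a collagen-binding protein of endothelium and fibroblasts, was at 742, 573, 371 and 603 CPM in vehicle animals 1 to 4 and 1423, 945, 1247 and 651 CPM in HPβCD animals 1 to 4. HPβCD animal 4 fell within the vehicle range, and the log2 fold change was 0.90 ± 0.29 (adjusted p of 0.0976 in edgeR). *Sparcl1*, for hevin, an astrocyte protein that promotes synapse formation, had the highest level per kilobase of all 53 genes. It was at 1830, 793, 3019 and 1214 CPM in vehicle animals 1 to 4 and 725, 582, 1288 and 579.7 CPM in HPβCD animals 1 to 4. Vehicle animals 1 and 3, the neuron-rich libraries, were the highest and the groups overlapped, and the log2 fold change was -1.11 ± 0.44 (adjusted p of 0.142 in edgeR), but -0.32 without those 2 animals. *Thbs1* and *Thbs3* had log2 fold changes of 0.81 and 0.74. *Postn* (periostin), *Comp* (cartilage oligomeric matrix protein) and *Thbs4* had standard errors larger than their log2 fold changes of 0.25, 0.46 and -0.48, and each changed sign when 1 or 2 libraries were left out. *Thbs4* was 0.795 and 1.43 CPM in HPβCD animals 2 and 1 but 24.4 CPM in HPβCD animal 3.

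Adhesive and other matrix genes were all above 0. Of 6 genes, 1 was called higher, 4 had groups apart, and the median log2 fold change was 0.89, or 0.64 without vehicle animals 1 and 3. *Ecm1*, for extracellular matrix protein 1, a secreted glycoprotein that binds perlecan, was at 26.6, 49.1, 35.6 and 41.1 CPM in vehicle animals 1 to 4 and 103, 108, 176 and 71.9 CPM in HPβCD animals 1 to 4. HPβCD animal 3 stood above the rest and the groups were apart, with a log2 fold change of 1.59 ± 0.29 (SE; adjusted p of 0.0483 in edgeR). *Mgp*, for matrix Gla protein, an inhibitor of vessel calcification, had the highest level per kilobase of the class. It was at 117, 159, 95.9 and 126 CPM in vehicle animals 1 to 4 and 182, 215, 246 and 259 CPM in HPβCD animals 1 to 4. The groups did not overlap, and the log2 fold change was 0.86 ± 0.19 (adjusted p of 0.0541 in edgeR). *Fn1*, for fibronectin, ranged from 480.7 to 828.1 CPM in vehicle and from 841.8 to 1474 CPM in HPβCD, with a log2 fold change of 0.96 ± 0.24 (adjusted p of 0.0641 in edgeR). *Matn2*, for matrilin-2, was apart at 0.93, and *Ecm2* overlapped at 0.43. *Vtn*, for vitronectin, a plasma and pericyte glycoprotein, was at 114, 101, 92.3 and 164 CPM in vehicle animals 1 to 4 and 137, 109, 208 and 147 CPM in HPβCD animals 1 to 4. Its groups overlapped, with a log2 fold change of 0.35 ± 0.25 (adjusted p of 0.397 in edgeR), or -0.05 in limma-voom.

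**Figure D4:**
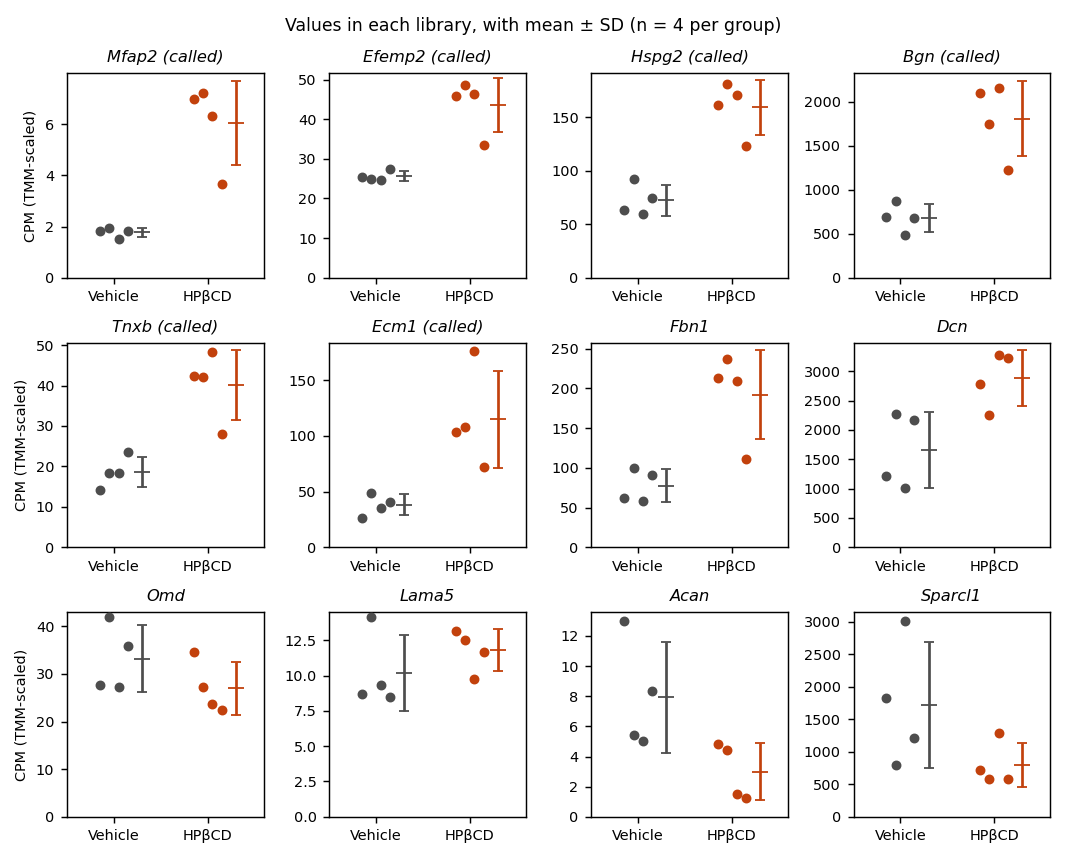
CPM in each library (points) with the group mean and SD (bar, n = 4 per group) for the 6 called genes and 6 others, on linear axes that start at 0. In each called gene the 4 HPβCD points lie above the 4 vehicle points, with HPβCD animal 4 (rightmost point) the lowest treated value in all 6, whereas in *Dcn*, *Omd*, *Lama5* and *Sparcl1* the groups overlap.

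Vehicle animals 2 and 4 were both above vehicle animals 1 and 3 in 33 of the 53 genes, against 29.6% of tested genes, and HPβCD animal 4 was the lowest of its group in 34, against 32%. Both patterns ran through several classes, as 8 of the 10 basement membrane genes had the former and 8 of the 10 matricellular genes the latter.

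Levels per kilobase used the merged exons of all annotated transcripts of a gene, so comparisons between genes depend on those lengths. With them *Sparcl1* ranked first at a mean of 427 CPM per kilobase over the group means. *Dcn* followed at 390, *Sparc* at 216, *Bgn* at 204, *Efemp1* at 191 and *Lum* at 186, and *Fbn2* was last at 0.0396. In vehicle infarcts *Dcn* stood at 285 and *Bgn* at 112 CPM per kilobase, and in HPβCD infarcts at 495 and 296. *Sparcl1* was at 584 CPM per kilobase in vehicle and 270 in HPβCD, above *Dcn* in the vehicle mean and below it in the HPβCD mean. That change of order was not tested, and the *Sparcl1* counts of the vehicle group had an SD of 968.8 CPM around a mean of 1714 CPM.

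Ratios of related genes within a library do not depend on how libraries are scaled. Of 17 pairs fixed for this purpose, 15 had at least 10 counts of both genes in every library and were tested by an exact two-sided permutation test over the 70 assignments of 8 libraries. For 2 pairs the groups did not overlap, which gives the smallest p the design allows, 0.0286, and after adjustment over 15 pairs that became 0.214, so no pair passed. The log2 ratio of *Ltbp1* to *Ltbp2*, per kilobase, was -1.91, -2.57, -1.82 and -1.95 in vehicle animals 1 to 4 and -3.10, -3.60, -3.53 and -2.75 in HPβCD animals 1 to 4, a difference of -1.18. The log2 ratio of *Sparc* to *Sparcl1* was -1.67, -0.84, -3.39 and -1.38 in vehicle and 0.61, 0.33, -0.41 and -0.20 in HPβCD, a difference of 1.90. With the merged exon lengths, *Sparcl1* thus exceeded *Sparc* per kilobase in every vehicle library, and in 2 of the 4 HPβCD libraries. The lowest 2 of these ratios were those of the neuron-rich vehicle animals 1 and 3. Without those animals the log2 fold change of *Sparcl1* was -0.32 instead of -1.11, and that of *Sparc* was 0.87 instead of 0.90. The ratio of *Dcn* to *Bgn* differed by -0.53, with overlap (exact permutation p = 0.143, adjusted 0.306). The ratios of *Nid1* to *Nid2* and of *Efemp1* to *Efemp2* differed by 0.12 and -0.19, at exact permutation p of 0.514 and 0.543.

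**Figure D5:**
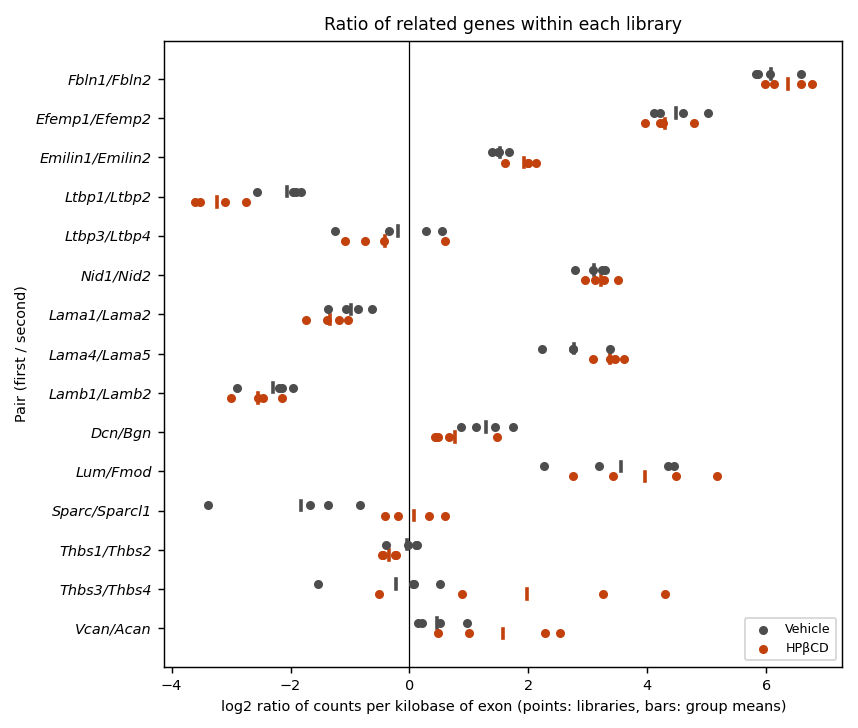
Log2 ratio of the counts per kilobase of exon of 2 related genes within each library (x axis; points are libraries, bars are group means, n = 4) for the 15 tested pairs. The groups are apart for *Ltbp1*/*Ltbp2*, lower in HPβCD, and for *Sparc*/*Sparcl1*, higher in HPβCD, and overlap for the other 13.

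Genes around the list were read from the same fit. Of 23 tested matrix receptors, 3 were called higher and none lower (1.17% and 0.774% of all tested genes), with a median log2 fold change of 0.37. They were *Itga11*, an integrin chain that binds fibrillar collagen (1.74, edgeR adjusted p = 0.0389), *Itgb5*, a partner of the αv chain that binds vitronectin (0.70, 0.0483), and *Lrp1*, an endocytic receptor of thrombospondins and other matrix ligands (1.13, 0.0499). Without vehicle animals 1 and 3 the median was 0.17, and *Itga11* and *Lrp1* were called. Of 34 tested further members of the same families, only *Smoc2*, for a SPARC-related modular protein, was called, at 1.47 (edgeR adjusted p = 0.0484), and the median was 0.21 (0.13 without vehicle animals 1 and 3, with 1 called). Matrix genes of neurons and glia lay the other way, with values that depended on the neuron-rich libraries. All 11 tested were below 0, with fold changes from -5.65 to -1.76 on the log2 scale, and *Tnr*, for tenascin-R (-2.51, edgeR adjusted p = 0.0499), and *Hapln1*, for a link protein of perineuronal nets (-2.10, 0.0499), were called lower. The lowest of these, *Hapln4*, was at 162.4 CPM in vehicle animal 3, 6.21 CPM in vehicle animal 1 and 1.17 and 1.18 CPM in vehicle animals 2 and 4, against 0.122 to 2.09 CPM in HPβCD. Without vehicle animals 1 and 3 none of the 11 was called, 10 lay below 0 and *Nptx1* above it (0.45), the range was -1.85 to 0.45 and the median -1.14. *Tnr* and *Hapln1* then stood at -1.71 and -1.36 (edgeR adjusted p = 0.111 and 0.0960).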

How the data were processed

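Bulk RNA-Seq was analyzed from infarcts of 8 aged mice, 4 given vehicle and 4 given HPβCD, with groups and animal numbers taken from the sample labels. Per the study's methods, RNA with a RIN above the authors' limit was made into TruSeq stranded libraries of polyadenylated RNA and sequenced as paired ends; reads were converted with bcl2fastq 2.19, trimmed with Trimmomatic 0.32, aligned to GRCm38 with STAR 2.5.2b and counted with htseq-count. The strand option, counting version and annotation release are not given in the sources used here. What the authors deposited is a table of raw counts for each animal, without normalization. The 5 lines of unassigned reads, 26.6% to 36.6% of a library, were left out. Because reads that map to several places are not counted, genes with close copies can be undercounted. Symbols matched 45143 of 46078 identifiers, and positions and exon lengths came from GENCODE M21 on GRCm38. No batch is given in the labels. No 2 libraries agreed within sampling noise (lowest chi-square per degree of freedom 18.9).

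Counts were tested with edgeR 4.0.16 in R 4.3.3 (TMM, filterByExpr by group, robust quasi-likelihood F test, Benjamini-Hochberg over 14736 genes, threshold 0.05), a procedure tested on simulated data. The SE of a log2 fold change is its size divided by the square root of F. DESeq2 1.42.0, the study's tool, and limma-voom (limma 3.58.1) were alternatives, as were other scalings, no filter, the animal number as a block, each library left out, and vehicle animals 1 and 3 left out. Pairs of genes were compared by exact permutation. The members, lists, tests and alternatives were chosen with earlier results of these data known. Values in every library are given for called members, for those with the highest level per kilobase and the smallest and largest fold change in each class, and for pairs at the smallest p; *Fbn1* and *Thbs4* were added after their values were seen. Promoter windows are from RefSeq on GRCm38.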

Additional observations from a re-analysis of the deposited data

Results flagged for a closer look

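In each gene and group of 4 animals, and in further summed values, the highest or lowest animal was compared with the rest by the ratio of its gap to the range (Dixon's criterion for 4 values). Of 122 groups searched, 6 were past it, and chance flags about 1 in 20, or 6.1 here. HPβCD animal 4 was low in 3 elastic fiber genes: *Fbn1* at 110.8 CPM against 208.9 to 236.5 in the other treated animals, *Efemp2* at 33.57 CPM against 45.75 to 48.54, and *Emilin2* at 23.43 CPM against 38.64 to 39.22. Vehicle animal 3, one of the neuron-rich libraries, was low in *Nid2*, at 9.06 CPM against 15.41 to 17.1 in the other controls, and in *Tnc*, at 4.892 CPM against 19.48 to 25.57. HPβCD animal 2 was high in *Nid1*, at 372.8 CPM against 314.5 to 321.2. With HPβCD animal 4 left out 9 members were called, *Fbn1* and *Efemp2* among them, where 2.35% of all tested genes were, and with vehicle animal 3 left out 14 were, *Nid1* and *Nid2* among them, where 4.22% were, compared with 1.95% in all 8 libraries.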

How the results depend on the processing

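The number of calls depended on the settings more than the direction did. Genes called numbered 287 (173 higher, 114 lower), against 2911 with DESeq2, 3253 with limma-voom, 11 with library totals alone and 0 to 629 with 1 library left out; without vehicle animal 2 the calls split into 207 higher and 331 lower. Members called numbered 6, against 29 with DESeq2, 32 with limma-voom and 0 with library totals alone. With no filter 10 members were called, where 296 of 26720 tested genes (1.11%) were. Members called numbered 2 without vehicle animals 1 and 3 together and 0 to 14 with 1 library left out. Members at an unadjusted p under 0.05 numbered 30 to 38 when 1 library was left out. In those fits 2922 to 4425 genes of the whole table, out of 14845 to 15059 tested, were under it. Members with groups apart numbered 26, and 20 to 26 in the other settings with all 8 libraries. They numbered 26 to 33 with libraries left out, where smaller groups make non-overlap easier. In the main setting 16.8% of tested genes were apart, and that share was not determined for the other settings. Class medians kept their sign throughout and moved by less than the spread between replicates, except the basement membrane, at 0.51 without vehicle animals 1 and 3. Pairs of genes with groups apart numbered 2, but 2 to 4 with 1 library left out and 4 without vehicle animals 1 and 3. Leaving libraries out cannot lower this count, because the remaining ratios stay the same. Of single members, none of them called, 7 turned sign in some setting: *Fbn2* to 0.13, *Postn* to -0.24 and *Vtn* to -0.05 with limma-voom, *Lum* to -0.06 and *Postn* to -0.20 without vehicle animals 1 and 3, *Fmod* to -0.16 and *Comp* to -0.37 without HPβCD animal 1, and *Thbs4* to 0.14 without vehicle animal 1. With 1 library left out these ranged from -0.16 to 0.64, -0.37 to 0.93 and -1.99 to 0.14. The cause was not tested.

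Whether the animal numbers pair the samples cannot be decided from 4 animals per group. Deviations of same-numbered animals correlated at -0.257, 0.244, 0.329 and 0.097. Vehicle animals 2 and 3 correlated best with the HPβCD animal of their own number, and vehicle animals 1 and 4 did not. With the number as a replicate block, edgeR called 9 genes, all lower, and 0 members (the 6 at adjusted p from 0.0777 to 0.0938, all above 0), and 5 pairs of genes had within-number differences of 1 sign. With 4 animals per group, differences near the spread of the vehicle libraries cannot be resolved.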
